A study of Mus musculus with 44 samples.

Results

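The genes of MHC class II antigen presentation were examined in the corpus of the mouse stomach, in wild-type (WT) animals and in animals without the beta subunit of the H+/K+ATPase (KO), which lack the gene Atp4b and therefore acid secretion. The 8 members, of 31484 gene names measured, were listed by name: H2-Aa, H2-Ab1, H2-Eb1, Cd74, H2-DMa, H2-DMb1, Ciita and Ctss. All 8 passed the filter on low counts, as did 14901 gene names in total. Female mice of the BalbC strain, 13 months old according to the labels, had received subcutaneous netazepide (NTZ, an antagonist of the gastrin receptor, labelled YF) or its vehicle polyethylene glycol (PEG). The KO line, made by homologous recombination and so without the gene in all cells, arose on a mixed BalbC and black6 background and was later back-crossed to BalbC. There were 44 mRNA libraries, 11 from WT/PEG, 9 from WT/NTZ, 13 from KO/PEG and 11 from KO/NTZ mice. The KO/PEG libraries outnumber the KO/PEG mice that the study describes, and the labels do not say why.

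MHC class II molecules display peptides from the endosomal pathway to CD4+ T cells. An alpha and a beta chain assemble with the invariant chain Cd74, which blocks the groove and guides the complex to endosomes. There cathepsin S, encoded by Ctss, trims the invariant chain, and the H2-DM heterodimer exchanges the remaining fragment for antigenic peptide. Dendritic cells, macrophages and B cells express these genes constitutively, and interferon gamma induces them in epithelial and other cells through Ciita, the transcriptional coactivator of class II promoters. Ciita does not bind DNA itself but joins RFX, CREB and NF-Y, which sit on the X and Y boxes of these promoters.

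Of the 8 members, 5 had a promoter window in the RefSeq table of build GRCm38.p6, from 250 bases before to 50 bases after an annotated start. H2-Ab1, Cd74 and Ciita had none. The 120 bases before the start are shown for 3 class II genes and for Ctss, because they carry the elements through which class II genes and interferon-induced genes are read. Capitals mark the Y box (ATTGG, or CTGATTGG in its extended form), the X1 box (AGCAACAGA with at most 1 mismatch) and the interferon regulatory factor element (TTTCNNTTT), each on either strand.
H2-Aa, chr17:34287824-34287943, minus strand: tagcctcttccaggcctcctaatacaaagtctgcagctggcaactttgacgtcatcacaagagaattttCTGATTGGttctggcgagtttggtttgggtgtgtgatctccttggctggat
H2-Eb1, chr17:34305747-34305866, plus strand: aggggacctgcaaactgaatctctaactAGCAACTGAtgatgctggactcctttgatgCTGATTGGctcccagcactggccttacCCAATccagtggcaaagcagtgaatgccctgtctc
H2-DMb1, chr17:34153071-34153190, plus strand: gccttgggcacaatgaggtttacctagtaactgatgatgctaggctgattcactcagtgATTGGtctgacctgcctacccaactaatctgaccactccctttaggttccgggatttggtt
Ctss, chr3:95526666-95526785, plus strand: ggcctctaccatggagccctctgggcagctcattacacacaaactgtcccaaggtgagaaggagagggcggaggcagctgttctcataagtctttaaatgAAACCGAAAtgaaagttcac

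The Y box core was present in the windows of 4 of the 5 members (H2-Aa, H2-Eb1, H2-DMa and H2-DMb1) and in 37.4% of all 32851 windows. H2-DMa has 2 windows, and its matches lay only in that of a second start inside the gene, while the window at the start of the gene held none of these elements. Its extended form was present in H2-Aa, starting at position -51, and in H2-Eb1, at position -62, and in 4.1% of all windows. The extended form contains the core, so the 2 searches overlap. An X1 box match was present in H2-Eb1, at position -92, and in 10.6% of all windows. The interferon regulatory factor element was present in Ctss, at position -20 and again after the start, in the second window of H2-DMa, and likewise in 10.6% of all windows. The gamma-activated site (TTCNNNGAA, in 8.3% of windows) and the E box (CACGTG, in 7.15%) were in none of the 5.

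Libraries held from 6065084 to 21945124 estimated counts. Atp4b, the targeted gene, was at 3923 ± 713 CPM (counts divided by the effective size of the library; mean ± SD) in WT/PEG and at 6.84 ± 3.86 in KO/PEG mice, and every KO library was below every WT library. One library, WT/NTZ animal WT_118, stood apart in the class II and interferon genes, and results that rest on it are given with and without it. The share of long against short transcripts also differed between genotypes. It was measured as a slope over genes in each library. The deviation of log2 CPM from the gene's mean over the 44 libraries was set against log2 length of the gene's longest transcript. This slope, relative to the average library, lay between 0.0561 and 0.323 in WT and between -0.338 and 0.155 in KO libraries. Of 24 KO libraries, 1 (KO_46 of KO/PEG) was above the lowest WT library. Within the corpus as a bulk tissue, more class II cells and more class II mRNA per cell cannot be told apart.

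Per length of transcript, the members kept nearly the same order in the 4 groups. In TPM, the share of each transcript after division by its length, WT/PEG mice had 97.6 ± 38.8 of Cd74, 51.3 ± 19.9 of H2-Aa, 36.8 ± 15.3 of H2-Eb1, 30.03 ± 12.2 of H2-Ab1, 12.2 ± 4.65 of Ctss, 3.72 ± 1.48 of H2-DMa, 2.60 ± 1.08 of H2-DMb1 and 0.252 ± 0.102 of Ciita (mean ± SD, n = 11). The invariant chain was thus the most abundant mRNA and the coactivator the least abundant. Each neighbour in this order was higher in all 11 WT/PEG libraries, although the ranges of mean ± SD overlapped for several neighbours, such as Cd74 and H2-Aa, H2-Aa and H2-Eb1, H2-Eb1 and H2-Ab1, and H2-DMa and H2-DMb1. In KO/PEG mice, the order was the same, but H2-DMa was above H2-DMb1 in only 8 of 13 libraries, and in KO/NTZ mice the means of these subunits changed places.

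In KO mice given vehicle, 7 of the 8 class II genes were higher than in WT mice given vehicle, and Ciita did not pass the test. The rise was between 2.27-fold (Ctss) and 3.55-fold (H2-DMb1). It shares its KO/PEG libraries with the comparison of NTZ and vehicle in KO mice and its WT/PEG libraries with that in WT mice. This comparison asks what loss of acid secretion and the hypergastrinemia that follows do to the corpus. Its background was broad, as 74.7% of all 14901 genes passed the test and 37.5% were higher (edgeR quasi-likelihood test, Benjamini-Hochberg adjusted p under 0.05). The median log2 fold change of the 8 members was 1.42, against 0.00 for all genes tested.

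Summed over transcripts, the genes of the alpha and beta chains rose alike, although the longer coding transcript of H2-Aa did not pass the test. H2-Aa, the alpha chain of I-A, had a lowest, median and highest value of 26.3, 40.4 and 94.4 CPM in WT/PEG libraries and of 67.0, 109.3 and 203.5 CPM in KO/PEG libraries. Among the 13 KO/PEG libraries, 9 exceeded the whole WT/PEG group, and the groups overlapped only through WT/PEG animal WT_121, the highest of its group for all 8 members and for the summed markers of macrophages, dendritic cells, B cells and T cells. The log2 fold change was 1.32 ± 0.32 (SE), with an adjusted p of 0.000292 by edgeR. H2-Ab1, its beta chain partner, lay between 19.4 and 66.3 CPM in WT/PEG and between 52.9 and 170.8 CPM in KO/PEG libraries, and rose by 1.53 ± 0.36. H2-Eb1, the beta chain of I-E, lay between 22.5 and 78.4 CPM in WT/PEG and between 59.8 and 221 CPM in KO/PEG libraries, and rose by 1.53 ± 0.33.

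The highest KO/PEG values of H2-Aa came from animals KO_110, KO_109 and KO_126, at 203.5, 190 and 154 CPM, and the lowest from animals KO_111 and KO_144, at 67.0 and 72.6 CPM. All 5 animals were numbered 100 or above. The 6 KO/PEG animals numbered below 100 were within a narrower range of 87.1 to 112 CPM. The labels do not say what the animal numbers mark. Numbers of 100 or above occurred in all 11 WT/PEG, 4 of 9 WT/NTZ, 7 of 13 KO/PEG and 1 of 11 KO/NTZ libraries. They are thus partly tied to group. That KO/NTZ library also carries the number 110, and the labels do not say whether it is the same animal. Within the higher numbers, with 7 KO/PEG and 11 WT/PEG libraries, the same 7 members were called, with log2 fold changes between 1.04 and 2.07. In that fit 73.2% of all genes were called in either direction.

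Cd74, the invariant chain, had a lowest, median and highest value of 67.5, 96.4 and 226 CPM in WT/PEG and of 146.7, 235 and 430 CPM in KO/PEG libraries. Its log2 fold change was 1.21 ± 0.35, with an adjusted p of 0.00206 by edgeR. All 13 KO/PEG libraries were above the WT/PEG median and 9 were above every WT/PEG library. The subunits of the peptide exchanger H2-DM overlapped least between the groups. H2-DMa lay between 2.30 and 6.43 CPM in WT/PEG and between 7.46 and 20.7 CPM in KO/PEG libraries, without overlap, and rose by 1.51 ± 0.37. Across all genes tested, 5.46% had the whole KO/PEG group above the whole WT/PEG group. H2-DMb1 exceeded the whole WT/PEG group in 12 of 13 KO/PEG libraries and rose by 1.83 ± 0.42.

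Ctss, the protease of the invariant chain, had a lowest, median and highest value of 7.57, 13.9 and 29.1 CPM in WT/PEG and of 17.3, 35.9 and 47.6 CPM in KO/PEG libraries. It rose by 1.18 ± 0.25, with an adjusted p of 4.39e-05 by edgeR. The animals with the most Ctss were not those with the most H2-Aa: Ctss was highest in KO/PEG animals KO_137 and KO_31, at 47.6 and 45.9 CPM, whereas animal KO_109 had 25.01 CPM.

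Ciita, the coactivator, did not pass the test. Its lowest, median and highest value was 0.768, 1.26 and 2.53 CPM in WT/PEG and 0.245, 1.32 and 4.93 CPM in KO/PEG libraries. The log2 fold change was 0.11 (95% interval -0.89 to 1.11), with an adjusted p of 0.854 by edgeR, and only 1 of 13 KO/PEG libraries was above every WT/PEG library. These values rest on 8 to 28 counts per WT/PEG library and on 4 to 73 counts per KO/PEG library. The highest value came from animal KO_46, which also had the most Ptprc, the pan-leukocyte gene, at 34.6 CPM.

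**Figure D1:**
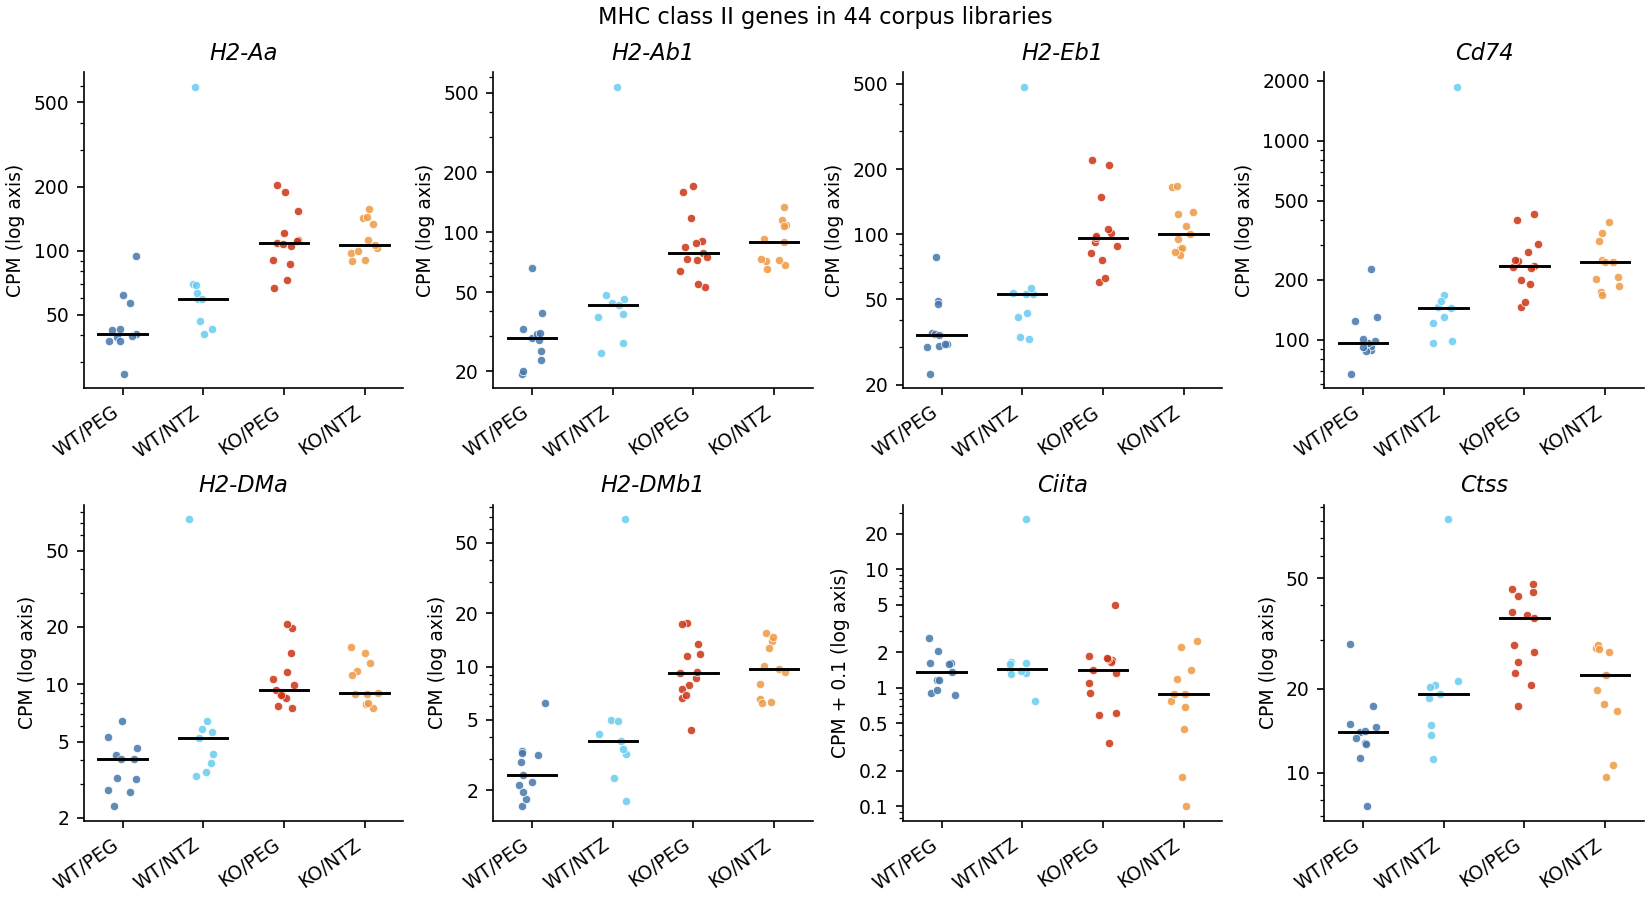
CPM of the 8 class II genes in each of 44 libraries (points, log axis; 0.1 was added for Ciita, which was at 0 in 1 library) by group, with the group median as a line. The medians of both KO groups lie above that of WT/PEG for every gene but Ciita, and 1 WT/NTZ library, animal WT_118, lies far above the other 8 in all panels.

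The transcript length slope moved with genotype and touches this comparison. With the slope as a covariate, only Ctss stayed higher in KO/PEG mice, at 1.25 with an adjusted p of 0.0230 by edgeR, beside 14.1% of all genes higher in that fit. The other 6 genes that had risen were then between -0.11 and 0.13 on the log2 scale, with adjusted p-values of 0.865 or more. Since the slope hardly overlapped between genotypes, length and genotype cannot be told apart in this fit. Within KO/PEG mice, where genotype is constant, H2-Aa had r = -0.30 with the slope (rho = -0.20, n = 13, permutation p = 0.315, adjusted p over 8 relations 0.4201) and r = -0.26 without the 2 libraries farthest from the median slope. Ciita had r = 0.64 with the slope in the same mice (rho = 0.62, permutation p = 0.0190, adjusted p 0.152), and r = 0.48 without those 2 libraries. The relation between H2-Aa and the slope was negative in each of the 4 groups, between -0.52 and -0.30, and passed the threshold in none.

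Of the coding transcripts of H2-Aa, the shorter one passed the test and the longer one did not. H2-Aa-201, 1128 bases with a coding sequence of 768 bases, was at 36.2 ± 17.99 CPM in WT/PEG and 43.96 ± 16.9 CPM in KO/PEG mice, with an adjusted p of 0.541 by edgeR over transcripts. H2-Aa-204, 826 bases with a coding sequence of 519 bases, was at 12.04 ± 3.58 and 72.3 ± 42.1 CPM, and rose by 2.58 ± 0.37 (adjusted p = 2.06e-07, edgeR). Of the H2-Aa counts, WT/PEG mice gave it 26.8% ± 9.87 and WT/NTZ mice 30.3% ± 9.52, against 59.6% ± 16.4 with vehicle and 72.2% ± 13.2 with NTZ in KO mice. H2-Ab1 showed the same kind of shift. H2-Ab1-203, a 515-base transcript with a retained intron near the 3′ end of the gene (chr17:34268270-34269394), rose from 0.644 ± 0.816 to 12.3 ± 13.9 CPM, by 4.22 ± 0.85 on the log2 scale. The full-length H2-Ab1-201 rose as well, by 1.30 ± 0.36. Of 13 member transcripts tested, 9 were higher in KO/PEG mice, beside 26.5% of all 30782 transcripts, and none was lower. Kallisto divides reads among overlapping transcripts, and the reads lay on the transcripts of the reference strain, whose H2 alleles differ from those of BalbC mice. Neither effect on these shares was tested, nor was the difference between the transcripts. Among KO/PEG libraries, H2-Aa-204 held 83.4% in animal KO_109, which had the lowest length slope, and 37.2% in animal KO_46, which had the highest. H2-Ab1-203 held 26.5% and 3.45% in the same libraries. The relation of these shares to the length slope was not tested.

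Cd74 has 3 protein-coding transcripts. The long isoform, the sum of the transcripts with a coding sequence of 837 instead of 645 bases, held 21.4% ± 4.94 of the Cd74 counts in WT/PEG and 20.6% ± 3.96 in WT/NTZ mice, and 19.0% ± 3.26 with vehicle and 20.1% ± 4.01 with NTZ in KO mice. The difference of -2.37 percentage points between KO/PEG and WT/PEG mice gave p = 0.174 in a two-sided permutation test, with an adjusted p of 0.696 over 4 comparisons. The other 3 adjusted p-values were 0.768. No difference in the isoform share of Cd74 was detected, while its total rose in KO/PEG mice.

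**Figure D2:**
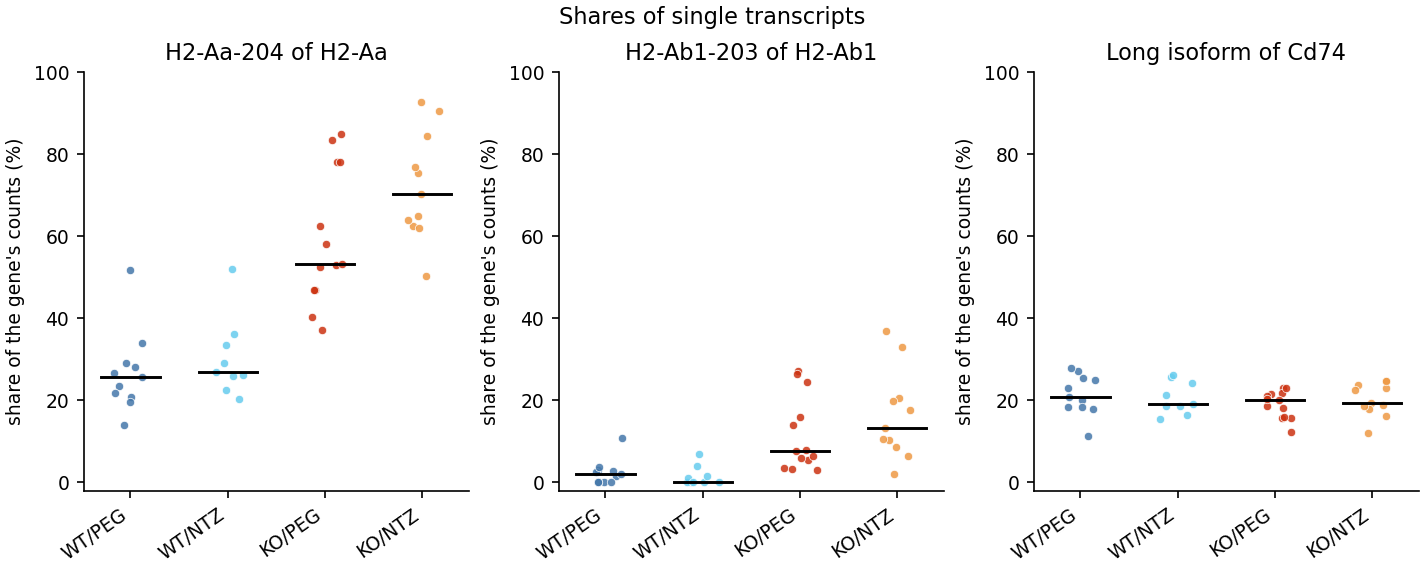
Share of the counts of H2-Aa given to H2-Aa-204, of H2-Ab1 given to H2-Ab1-203 and of Cd74 given to its long isoform, in percent, in each library (points) by group, with the group median as a line. The medians of H2-Aa-204 are 25.7% in WT/PEG and 53.3% in KO/PEG mice, whereas those of the Cd74 long isoform are 20.7% and 20.1%.

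In KO mice, NTZ changed none of the 8 genes past the threshold. The 6 genes of the H2 and Cd74 set were between -0.09 and 0.01 on the log2 scale, with SEs between 0.31 and 0.39. Across all genes, 5.56% passed the test (edgeR), and 1 member, Ctss, had an unadjusted p under 0.05. DESeq2 and limma-trend called 0 members as well, beside 8.38% and 5.73% of all genes. H2-Aa had a lowest, median and highest value of 67.0, 109.3 and 203.5 CPM in KO/PEG and of 89.5, 106 and 157 CPM in KO/NTZ libraries, so the KO/NTZ range lay inside that of KO/PEG. The 95% interval of its log2 fold change was -0.62 to 0.58. Cd74 had medians of 235 and 245 CPM, and H2-DMb1 of 9.16 and 9.66 CPM.

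Only Ctss came near the threshold. It was at 33.3 ± 10.3 CPM in KO/PEG (n = 13) and at 21.0 ± 6.81 CPM in KO/NTZ mice (n = 11), a log2 fold change of -0.66 ± 0.24 with an adjusted p of 0.0907 by edgeR. In each of the 11 KO/NTZ libraries Ctss lay under the median of the KO/PEG group. The adjusted p was 0.0532 with DESeq2 and 0.0637 with limma-trend. It passed the threshold when WT/NTZ animal WT_118 was left out of the fit, at 0.0219 (edgeR), and when KO/PEG animal KO_53, the lowest for Ctss, was left out. Ciita was at 0.921 ± 0.762 CPM in KO/NTZ mice, at or under 3 counts in 3 of 11 libraries and at 0 in animal KO_37, and differed from KO/PEG by -0.58 ± 0.52. Animal KO_37 had 106 CPM of H2-Aa, the median of its group. Among animals numbered below 100, with 10 KO/NTZ and 6 KO/PEG libraries, no member was called either, beside 1.74% of all genes. The log2 fold changes of the members were then between -0.88 and 0.35.

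In WT mice, 5 members were higher with NTZ than with vehicle by the test (Cd74, H2-Aa, H2-Ab1, H2-DMa and H2-DMb1), beside 1.03% of all genes, and the call rested on 1 library. H2-Aa was at 40.4, 42.8, 46.6, 59.2, 59.3, 63.4, 69.1, 69.8 and 594 CPM in the 9 WT/NTZ libraries. The last, animal WT_118, was 10.03 times the median of the other 8. The same library had 1869 CPM of Cd74, against 96.2 to 169 in the others, and 26.6 CPM of Ciita, against 0.672 to 1.56. Its excess over the median of the others was 13.1-fold for H2-Ab1, 10.1-fold for H2-Eb1, 15.4-fold for H2-DMa, 18.9-fold for H2-DMb1, 20.1-fold for Ciita and 4.32-fold for Ctss.

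Without animal WT_118, no member was called and none had an unadjusted p under 0.05 by edgeR, beside 0.381% of all genes called. The log2 fold changes were then between -0.05 (Ciita) and 0.34 (H2-DMb1). In the fit of all libraries they had been between 0.75 (Ctss) and 1.95 (H2-DMb1). DESeq2, which replaces outlying counts, called 0 members with 2 at an unadjusted p under 0.05, and limma-trend called 0 with 7. Across all genes, DESeq2 called 1.17% and limma-trend 0.0134%. Among animals numbered 100 or above, with 4 WT/NTZ libraries including animal WT_118, all 8 members were called, beside 3.62% of all genes. Over the other 8 WT/NTZ libraries, H2-Aa had a median of 59.2 CPM and H2-DMb1 of 3.61 CPM, against 40.4 and 2.43 CPM in WT/PEG mice, and no such library was above every WT/PEG library for any member.

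Animal WT_118 had the least Atp4b of the WT/NTZ group, at 2139 CPM. In this library, targets of interferon gamma signalling were high as well, whereas its receptor chains and kinases were at most 1.29-fold the median of the others. Irf1, a transcription factor induced by interferon, was at 138 CPM, against 16.7 to 36.7 in the other 8 WT/NTZ libraries. Gbp2, a guanylate-binding protein, was at 114 CPM, against 8.38 to 21.999, and the chemokine gene Cxcl9 at 37.5 CPM, against 1.56 to 4.69. Ifngr1 was 1.29-fold, Ifngr2 1.17-fold, Jak1 0.973-fold and Jak2 0.976-fold the median of the others. The immunoproteasome gene Psmb8 was at 175 CPM, against 7.36 to 21.1. Summed markers of B cells were 41.1 CPM, against a group median of 2.27, and those of macrophages 226 against 98.3. Those of squamous epithelium were 378 CPM, which was the group median, against a median of 0.853 CPM in WT/PEG mice. Ptprc was at 25.96 CPM in animal WT_118, against 3.93 to 8.47 in the others of its group. The part of these in the class II values was not tested. Ifng itself was at 8 counts in that library and at 3 counts or fewer in the other 43.

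**Figure D3:**
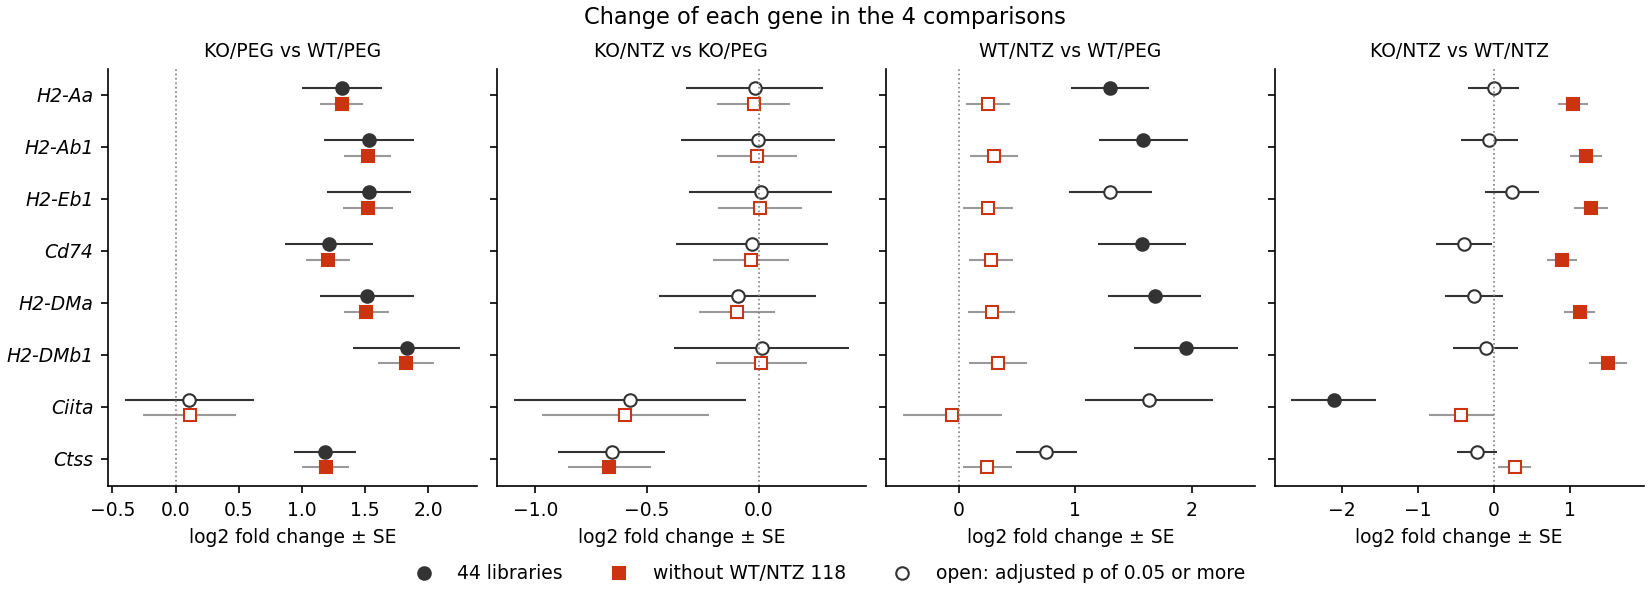
Log2 fold change with SE of each gene in 4 comparisons, from the fit of 44 libraries (circles) and from the fit without WT/NTZ animal WT_118 (squares), filled where the adjusted p is under 0.05. The values for KO/PEG and WT/PEG hardly move without animal WT_118, whereas those of both comparisons that include WT/NTZ do.

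KO/NTZ and WT/NTZ mice differed in 1 member, Ciita, which was lower by 2.10 on the log2 scale (SE 0.55, adjusted p = 0.000886, edgeR), beside 36.8% of all genes lower. That value rests on animal WT_118, without which it fell to -0.43 with an adjusted p of 0.368. Without animal WT_118, 6 members were higher in KO/NTZ mice, beside 35.8% of all genes. These were Cd74 at 0.90, H2-Aa at 1.04, H2-DMa at 1.13, H2-Ab1 at 1.21, H2-Eb1 at 1.28 and H2-DMb1 at 1.496, all with adjusted p-values of 0.000106 or less (edgeR). Ctss was then at 0.27 with an adjusted p of 0.246. DESeq2 likewise called 6 members higher on all libraries, as did the fit of animals numbered below 100, with 10 KO/NTZ and 5 WT/NTZ libraries. These fits called 72.5% and 63.7% of all genes in either direction. With the length slope as a covariate the direction turned, and 0 members were higher and 3 lower, Cd74 at -1.33, H2-DMa at -1.36 and H2-DMb1 at -1.46 (adjusted p 0.0411, 0.0415 and 0.0405, edgeR on all libraries). In that fit 19.8% of all genes were called in either direction. The slope nearly separates the genotypes here too, so length and genotype cannot be told apart. For each of these 6 genes, all 11 KO/NTZ libraries were above the WT/NTZ median.

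The effect of NTZ itself differed by genotype (the interaction term) for 1 member, Ctss, at -1.41 ± 0.36 (adjusted p = 0.0378, edgeR), beside 0.718% of all genes lower. Without animal WT_118 it was -0.92 with an adjusted p of 0.137. Ctss was 1.68-fold higher with NTZ in WT mice and 1.58-fold lower in KO mice in the fit of all libraries, and neither effect passed the threshold by itself. All 8 members had an unadjusted p under 0.05 for this difference in the full fit, and 1 without animal WT_118.

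Other genes of the class II region were listed beside the members. H2-DMb2, a second DM beta chain, rose by 1.54 ± 0.47 in KO/PEG mice (adjusted p = 0.00336, edgeR), while H2-Ob, a chain of the DM inhibitor H2-O, was at 0.90 with an adjusted p of 0.153. Its partner H2-Oa and the beta chain H2-Eb2 were too low to test. H2-Ea-ps is named a pseudogene in the reference, since the reference strain does not express the I-E alpha chain. It had 41 to 3068 counts in the 44 libraries, with means of 20.9 CPM in WT/PEG and 31.9 CPM in KO/PEG mice. Its log2 fold change was 0.61 with an adjusted p of 0.0844 by edgeR. In the fit without animal WT_118 it was called higher, at 0.61 with an adjusted p of 0.0188 (edgeR). The class II ubiquitin ligase March8 was lower, at -0.87 ± 0.13. That was 1 of 3 genes listed for class II turnover, beside 5537 of all 14901 genes, and none of the 3 was higher. With the length slope as a covariate March8 was not called, while March1, a related ligase, and H2-Ob were higher.

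The transcription factors of class II promoters were called higher and lower about as often as all genes. Of 10 tested, 4 were higher and 3 lower in KO/PEG than in WT/PEG mice, beside 5587 (37.5%) and 5537 of all 14901 genes. The median of the 10 was 0.09. Higher were the leukocyte factors Spi1 (1.59 ± 0.22), Irf4 (1.97 ± 0.42) and Irf8 (1.18 ± 0.28) and the RFX subunit Rfxap (0.46 ± 0.11). Lower were Rfx5 (-0.69 ± 0.15), Creb1 (-0.88 ± 0.13) and Nfya (-0.21 ± 0.07), which are parts of the complexes on the X and Y boxes. Rfxank, Nfyb and Nfyc, further parts of these complexes, did not pass the test. Rfx5, for example, was at 10.6 CPM in WT/PEG and 6.50 CPM in KO/PEG mice. NTZ changed none of the 10 in KO mice, beside 5.56% of all genes called. With the length slope as a covariate, 1 of the 10 was higher in KO/PEG mice, Irf4, beside 14.1% of all genes. Nfyc was the 1 lower.

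The interferon gamma pathway also had calls in both directions, neither more frequent than among all genes. Of 11 genes listed, 10 were tested, and 3 were higher in KO/PEG mice, beside 37.5% of all genes. A further 2 were lower, beside 5537 of all 14901 genes, with a median of -0.11 for the list. The receptor chain Ifngr2 rose by 1.24 ± 0.14, Irf1 by 1.25 ± 0.22 and the feedback inhibitor Socs1 by 2.72 ± 0.50, whereas the kinases Jak2 (-0.92 ± 0.14) and Jak1 (-0.59 ± 0.13) were lower. With the length slope as a covariate only Jak1 was called, and it turned to higher, at 0.46. Cxcl9 was at -0.14 with an adjusted p of 0.780. Ifng, the ligand, was at 2 counts or fewer in all KO libraries and could not be tested at this depth. Irf1 and Socs1 were thus high in WT/NTZ animal WT_118 and higher in KO/PEG mice, whereas Cxcl9 was high in animal WT_118 and did not pass the test in KO/PEG mice.

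Endosomal processing genes were higher in KO/PEG mice in 10 of 12 cases, beside 37.5% of all genes. None was lower, and the median was 0.79. Ctsh rose by 2.07 ± 0.15, Ctsz by 1.41 ± 0.14, Ctsl by 1.27 ± 0.15 and the asparagine endopeptidase Lgmn by 0.73 ± 0.09. Class I presentation was higher in 10 of 14 genes and lower in 2, with a median of 0.86. The immunoproteasome subunit Psmb10 rose by 2.19 ± 0.29, the peptide loading factor Tapbp by 0.84 ± 0.13 and the heavy chains H2-K1 and H2-D1 by 1.63 ± 0.29 and 1.39 ± 0.22. The heavy chains share near-identical sequence with other class I genes, so their single values are uncertain. B2m, the light chain, was at 0.09 with an adjusted p of 0.645. Costimulatory ligands were higher in 2 of 4 tested, Cd86 (0.64 ± 0.24) and Cd40 (1.02 ± 0.41), beside 37.5% of all genes. NTZ changed none of these processing, class I or costimulatory genes past the threshold in KO mice in the fit of all libraries. Across all genes, 5.56% were called in that comparison. Ctsc was lower there without animal WT_118 (-0.50) and with the slope (-0.47), and Calr was higher with the slope (0.38). With the length slope as a covariate, 0 of 14 class I genes and 3 of 12 processing genes were higher, beside 14.1% of all genes. A further 3 processing genes were lower. Neither costimulatory gene was then called.

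Markers of 5 leukocyte types were mostly higher in KO/PEG than in WT/PEG mice, beside 37.5% of all genes. Of these types, B cells, macrophages and dendritic cells express class II constitutively. All 5 B cell markers rose, with Cd79a from 0.820 to 11.3 CPM (3.73 ± 0.70) and a list median of 2.70. Summed B cell markers lay between 0.679 and 11.2 CPM in WT/PEG and between 4.23 and 80.1 CPM in KO/PEG libraries. Of 8 macrophage markers, 6 rose and none fell, with C1qa at 1.63 ± 0.22, and their sum lay between 53.5 and 125 CPM in WT/PEG and between 109.3 and 268 CPM in KO/PEG libraries. Of 8 dendritic cell markers, 4 rose, with Itgax at 1.499 ± 0.28, and 1 fell, Cd209a, from 0.837 to 0.0780 CPM. Of 4 plasma cell markers, 3 rose and 1 fell, with Mzb1 at 4.18 ± 0.50. Of 5 T cell markers, 3 rose, all of the CD3 complex, while Cd4 was at 0.41 with an adjusted p of 0.330. With the length slope as a covariate, all 5 B cell markers were higher, beside 14.1% of all genes. So were only 1 of 8 macrophage, 1 of 8 dendritic cell, 2 of 4 plasma cell and 0 of 5 T cell markers. No listed marker of these 5 cell types was at 0 in all libraries of a group.

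Among genes of all leukocytes, Coro1a rose by 1.97 ± 0.35, Lcp1 fell by 0.29 on the log2 scale and Ptprc was at 0.26 with an adjusted p of 0.558. With the slope as a covariate, Ptprc alone of these was called, and was higher. Epithelial markers were higher in 4 of 5 genes, beside 37.5% of all genes, with Epcam at 1.58 ± 0.12. With the length slope as a covariate, 1 of 5 was higher, Epcam, beside 14.1% of all genes. All 4 parietal cell markers and all 4 smooth muscle markers were lower, beside 5537 of all 14901 genes. The medians were -2.37 for the parietal cell and -0.71 for the smooth muscle markers. None of the 4 squamous markers of the forestomach passed the test, and their sum ranged from 0.427 to 277 CPM in WT/PEG and from 1.31 to 307 CPM in KO/PEG libraries. In KO mice, NTZ changed no marker of leukocytes or epithelium past the threshold, while 2 of 4 smooth muscle markers rose. Of all 14901 genes, 442 rose and 387 fell in that comparison. Without animal WT_118, the macrophage marker C1qb and the plasma cell marker Jchain were lower, beside 5.97% of all genes called in either direction. With the slope, C1qb was again lower and 2 of 5 epithelial markers, Krt18 and Krt19, were higher. In that fit 12.8% of all genes were called in either direction. The part of these cells in the class II values was not tested.

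Across libraries, the class II genes moved as a tight block, with Ciita and Ctss loosely attached. After subtraction of the group means, and without animal WT_118, the pairs among H2-Aa, H2-Ab1, H2-Eb1, Cd74 and H2-DMa had Pearson correlations between 0.84 and 0.97 over 43 libraries. H2-DMb1 followed them less closely. Ciita had correlations between 0.14 and 0.64 with the other 7 members and Ctss between 0.12 and 0.64, the highest in both cases being that between Ciita and Ctss. These are descriptions, since the genes share libraries, depth and length slope.

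Within groups, H2-Aa and Ciita had r = 0.67 in WT/PEG (rho = 0.58, n = 11), 0.36 in KO/PEG (rho = 0.43, n = 13) and 0.62 in KO/NTZ mice (rho = 0.63, n = 11). The permutation p-values of these r were 0.0235, 0.234 and 0.0444, and 0.0703, 0.351 and 0.10 after adjustment over 12 relations. In WT/NTZ mice r was 0.94 (rho = 0.47, n = 9, exact p = 0.050) and fell to 0.26 without the 2 libraries farthest from the median of Ciita, so that it rested on those 2 libraries, animal WT_118 among them. Without their 2 farthest libraries the other groups had r of 0.41, 0.43 and 0.79. Among the relations of H2-Aa with Ciita and with Ptprc in the 4 groups, only that with Ptprc in WT/NTZ mice passed the threshold (r = 0.94, rho = 0.75, exact p = 0.00239, adjusted p 0.0286), and without the 2 farthest libraries its r was 0.63. None of these passed by rank correlation, where the smallest adjusted p was 0.230.

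**Figure D4:**
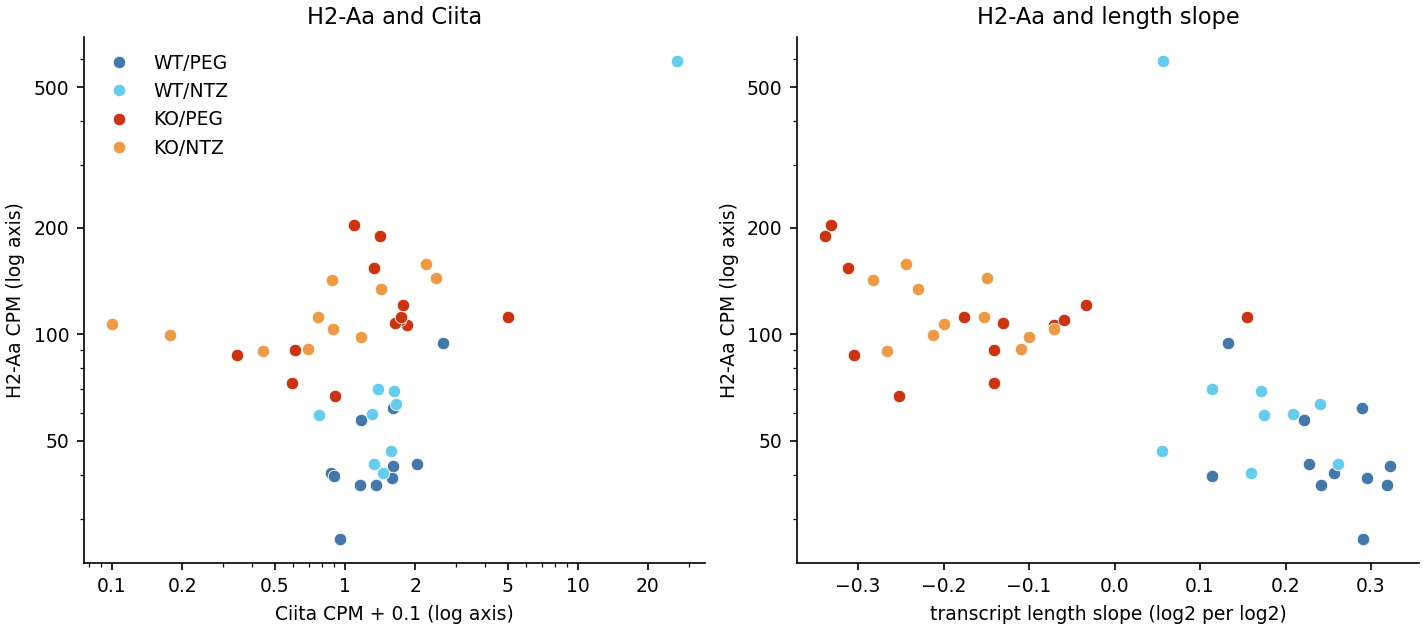
H2-Aa against Ciita (left, both in CPM on log axes, with 0.1 added to Ciita) and against the transcript length slope of the library (right), with 1 point per library, coloured by group. Most KO libraries lie above most WT libraries in H2-Aa. The ranges of Ciita overlap, but some KO libraries lie below every WT library in Ciita. WT and KO libraries occupy nearly separate ranges of the slope.

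The 10 genes whose deviations from the group means were most like those of the members, by mean Pearson correlation over 44 libraries, were H2-DMb2 (0.81), Psmb8 (0.78), Irf8 (0.78), Ly6a (0.76), B2m (0.76), H2-Q4 (0.75), C1qb (0.75), Laptm5 (0.75), Ly86 (0.74) and Ccl8 (0.74). Animal WT_118 shaped this list. Without it, over 43 libraries, the first 5 were Laptm5 (0.64), Arhgdib (0.64), Cd52 (0.64), Ncf4 (0.63) and H2-DMb2 (0.62), genes expressed in leukocytes apart from the class II gene itself.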

How the data were processed

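RNA of the gastric corpus was sequenced as stranded mRNA libraries with single reads, and the authors quantified it with kallisto 0.42.4 on GRCm38 transcripts. The deposited values are estimated counts per transcript. They were summed per gene name of GENCODE vM21 (92372 of 94080 transcripts matched; the other 1708 held 0.329 to 1.30% of the counts) and rounded. Genes were filtered with edgeR's filterByExpr (minimum count 10, minimum total 15), scaled by TMM, and tested by edgeR's quasi-likelihood test (edgeR 4.0.16, R 4.3.3) in one fit of all 44 libraries by group, with Benjamini-Hochberg adjustment over 14901 genes and a threshold of 0.05. The study's own test, Sleuth, was not repeated here. TPM were computed from the counts and annotated transcript lengths. Alternatives used DESeq2 1.42.0 and limma-trend (limma 3.58.1), among others. The edgeR test of genes was tried on simulated counts for KO/PEG against WT/PEG mice.

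Animal numbers in the labels served as replicate numbers. WT/PEG libraries WT_172_1 and WT_172_2 share a number. They differed by a chi-square per gene of 23.7, against 7.33 to 136 (median 34.7) over the 54 other pairs, and were kept as separate samples. Libraries of the same animal can differ too, so this cannot show that they are separate animals. Nothing else shows that the libraries are separate animals, so p-values measure the spread between these libraries. Reads of the H2 genes were counted on the reference strain, whose alleles differ from those of BalbC mice, and the loss of reads was not tested. Intervals of log2 fold changes are from the standard error of the fit and hold the spread between libraries, whereas the floor of 3 counts covers counting error only. The members, the 17 gene lists and the tests were chosen with earlier results of these data known. The text names all 8 members, at most 4 genes of a list by smallest p, and the 10 genes most like the members. Irf8, Rfxap, Nfya, Jak1, Cxcl9, B2m, Cd4, Ptprc, the genes named for library WT_118 and further listed genes outside that rule were named after their values were seen. Results for 1 listed gene are not reported here; it remains in the counts over its list and in the adjustment over the 12 relations.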

Additional observations from a re-analysis of the deposited data

Results flagged for a closer look

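WT/NTZ animal WT_118 was far above the other 8 libraries of its group for all 8 members, by Dixon's criterion, which flags about 1 in 20 groups by chance. Its values were 594 CPM of H2-Aa, 537 of H2-Ab1, 484 of H2-Eb1, 1869 of Cd74, 73.2 of H2-DMa, 68.2 of H2-DMb1, 26.6 of Ciita and 81.7 of Ctss. The 8 genes are correlated, so these are not independent flags. The share of H2-Aa-204 was high in WT/NTZ animal WT_117, at 51.95% of the H2-Aa counts, just past the same criterion. Animal WT_117 also had the lowest length slope of the WT libraries, at 0.0561, and a relation of both was not tested. The NTZ effect on Ctss differed between KO and WT mice by -1.41 on the log2 scale in the interaction test of edgeR, and this difference was not past the threshold without animal WT_118.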

How the results depend on the processing

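The higher level of 7 members in KO/PEG than in WT/PEG mice held under every alternative tried except the length slope as a covariate, which left 1. It was 7 with each library of the compared groups left out in turn. For KO/NTZ against KO/PEG mice, 1 member (Ctss) was called without animal WT_118, and 0 to 1 with single libraries left out (1 without KO_53). For WT/NTZ against WT/PEG mice, 0 members were called with DESeq2, without animal WT_118, with the slope, with limma-trend and with only the compared groups, and 8 among animals numbered 100 or above. Single libraries left out gave 0 to 6, with 2 without WT_172_1. For KO/NTZ against WT/NTZ mice, 6 were called, all higher, with DESeq2, without animal WT_118 and among animals numbered below 100, 6 with limma-trend (5 higher, without Cd74, and Ciita lower), 3 with the slope, all lower, and 0 with a minimum count of 50, which removed Ciita. Single libraries left out gave 1 to 6. The difference between the NTZ effects gave 0 without animal WT_118, without the libraries numbered 110, with limma-trend and with the WT_172 pair summed, 2 with the slope, and 0 to 1 with single libraries left out. Where a cause is not shown by the construction of the alternative, the cause was not tested. Animal WT_118 and the slope were chosen as alternatives after seeing the data.

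Values near 0 changed sign. For KO/NTZ against KO/PEG mice, H2-Aa, H2-Ab1, Cd74 and H2-DMa were at 0.34, 0.43, 0.36 and 0.40 with a term for animal numbers, at 0.092, 0.10, 0.058 and 0.035 without the libraries numbered 110, and at 0.15, 0.19, 0.090 and 0.22 among animals numbered below 100. H2-Aa and H2-Ab1 were at 0.028 and 0.049 with limma-trend, and H2-Ab1 at 0.00086 with a minimum count of 50. H2-Eb1 was at -0.00057 with DESeq2, -0.000733 with its size factors, -0.00327 without a filter and -0.063 with the slope, where H2-DMb1 was at -0.098.

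For KO/NTZ against WT/NTZ mice, H2-Aa, H2-Ab1, Cd74, H2-DMa and H2-DMb1 were at 0.96, 1.13, 0.84, 1.04 and 1.38 with DESeq2, at 0.50, 0.57, 0.21, 0.42 and 0.70 with a term for animal numbers, at 1.04, 1.21, 0.90, 1.13 and 1.496 without animal WT_118, at 0.66, 0.79, 0.45, 0.67 and 1.005 with limma-trend and at 1.15, 1.31, 1.01, 1.20 and 1.70 among animals numbered below 100. Ctss was at 0.27 without animal WT_118 and at 0.34 among animals numbered below 100. H2-Aa was at 0.019 without the libraries numbered 110 and at 0.010 without a filter, and H2-Eb1 at -0.97 with the slope. For KO/PEG against WT/PEG mice, the slope gave -0.066 for H2-Ab1, -0.11 for H2-Eb1, -0.082 for Cd74, -0.030 for H2-DMa and -0.078 for H2-DMb1. Ciita was at -0.11 with limma-trend and -0.41 among animals numbered 100 or above. For WT/NTZ against WT/PEG mice, Ciita was at -0.060 with DESeq2 and -0.055 without animal WT_118.

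With single libraries left out, the log2 fold changes for KO/NTZ against KO/PEG mice ranged from -0.071 to 0.071 for H2-Aa, -0.074 to 0.11 for H2-Ab1, -0.068 to 0.13 for H2-Eb1, -0.12 to 0.056 for Cd74, -0.17 to 0.012 for H2-DMa and -0.057 to 0.10 for H2-DMb1. Those for KO/NTZ against WT/NTZ mice ranged from -0.10 to 1.04 for H2-Aa, -0.17 to 1.21 for H2-Ab1, -0.50 to 0.90 for Cd74, -0.38 to 1.13 for H2-DMa, -0.23 to 1.496 for H2-DMb1 and -0.31 to 0.27 for Ctss. Ciita ranged from -0.21 to 0.24 for KO/PEG against WT/PEG and from -0.055 to 1.78 for WT/NTZ against WT/PEG mice. No paired analysis was possible because the groups compared share fewer than 2 animal numbers.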
